A study of Mus musculus with 40 samples.

Results

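The receptors for adenosine and for prostanoids were followed across 40 RNA-sequencing libraries of brown adipose tissue (BAT), the fat depot that burns fuel to make heat. The 10 genes were taken by symbol from a count table of 20295 genes, and they comprise 4 adenosine receptors (Adora1, Adora2a, Adora2b and Adora3) and 6 prostanoid receptors (Ptger1, Ptger2, Ptger3, Ptger4, Ptgir and Ptgfr). Of these, 8 passed the filter on low counts and were tested, whereas Adora2b and Adora3 did not pass it and are described by their counts. The libraries fell into 8 groups of 5, all from male mice kept at 29 °C. C-3BO mice carried Gpr3, a receptor that signals through Gs without a ligand, as a transgene in the ROSA26 locus behind a CAG promoter and a lox-STOP-lox cassette, and Ucp1-Cre removed that stop, so the excess Gpr3 was limited to cells with a history of Ucp1 expression. Their control littermates had the transgene and no Cre, or Cre and no transgene. C-3BO and control mice were 13 to 19 weeks old, were not injected and ate chow or a high-fat diet (HFD, 60 kcal% fat) for 7 days. The other cohort was labelled wildtype, consisted of control littermates of an inducible Gpr3 line at 15 weeks of age, and received saline (10 µL/g) or the beta3-adrenergic agonist CL-316,243 (CL, 1 mg/kg) into the peritoneum daily for 9 days. These injected mice ate chow or the same HFD for 7 days, with injections that began 2 days ahead of the diet change, and their tissue was taken the day after the last dose of CL.

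Adenosine leaves cells directly or is formed outside them from released ATP, and prostanoids are made from arachidonic acid by cyclooxygenases and terminal synthases. Both act on G protein-coupled receptors that raise cAMP through Gs, lower it through Gi or raise calcium through Gq. In brown adipocytes, cAMP drives lipolysis and the expression of Ucp1, the uncoupling protein that makes heat, so a receptor's coupling sets whether its ligand adds to or opposes adrenergic input. Adora2a, Adora2b, Ptger2, Ptger4 and Ptgir are coupled to Gs, Adora1, Adora3 and Ptger3 mainly to Gi, and Ptger1 and Ptgfr to Gq or calcium.

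The libraries held between 849126 and 15260516 counts. In 12 of them, namely all 10 of the injected HFD groups and HFD C-3BO libraries 4 and 5, the liver transcript Alb stood at 62.2 to 294 CPM (counts scaled to 1e6 per library), against at most 1.62 CPM in the other 28. These 12 were also the shallowest, with at most 7284129 counts against at least 7349348 elsewhere. Every injected HFD library and no injected chow library was among them, so in the injected mice diet and whatever sets these libraries apart cannot be told apart, and results with HFD C-3BO are given with and without libraries 4 and 5. Gpr3 matched the genotype labels, at 266 to 463 CPM in chow C-3BO and 688 to 918 CPM in HFD C-3BO libraries against at most 0.744 CPM in both control groups. Among the injected libraries it was at most 1.18 CPM except in chow CL library 3, at 9.15 CPM, and without that library 0 members were still called for CL on chow. The tissue label was checked on 7 brown adipocyte markers (Ucp1, Cidea, Dio2, Ppargc1a, Adipoq, Plin1 and Fabp4), of which none was at 0 in any group and whose summed group medians ran from 12787 CPM in chow controls to 29071 CPM in HFD C-3BO mice.

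Levels spanned more than 3 orders of magnitude, and the order is given per kilobase of counted exon (CPM per kb), the scale on which genes can be compared. Over the 40 libraries Ptger1 averaged 66.5 and Adora1 65.02 CPM per kb, followed by Ptger3 at 33.1, Adora2a at 9.91, Ptger4 at 4.36, Ptgir at 2.35 and Ptger2 at 0.873. Ptgfr (0.138), Adora2b (0.136) and Adora3 (0.0282) closed the list. Neighbours from Adora1 down to Ptgfr kept this order in at least 38 of the 40 libraries. The pair at the top did not, since Ptger1 exceeded Adora1 in only 15 libraries. Those included all 5 HFD C-3BO libraries, where Ptger1 stood at 127 ± 18.1 and Adora1 at 47.2 ± 6.0003 CPM per kb (SD, n = 5), and all 5 HFD CL libraries, at 88.9 ± 5.25 and 54.2 ± 7.06. In chow controls the order was the other way in all 5 libraries, at 37.7 ± 3.55 for Ptger1 and 60.6 ± 8.95 for Adora1. Ptgfr and Adora2b could not be ordered, because Ptgfr was the higher of them in 19 libraries and tied in 1.

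**Figure D1:**
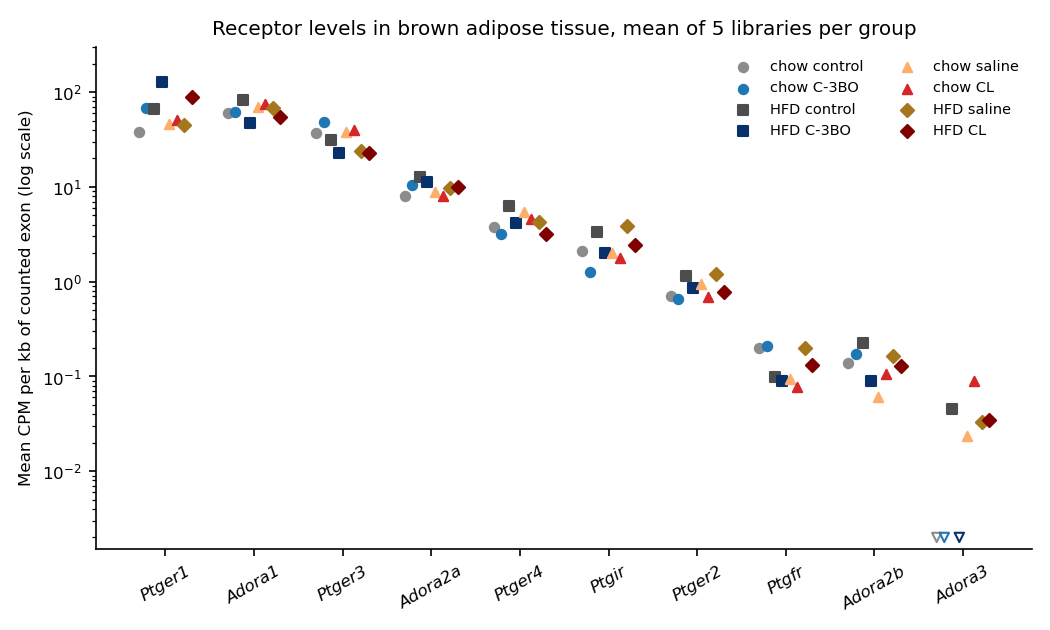
Mean level of each receptor in each of the 8 groups (n = 5 libraries), in CPM per kb of counted exon on a log scale; open triangles at the lower edge mark a group mean of 0. Ptger1, Adora1 and Ptger3 lie highest, and Ptgfr, Adora2b and Adora3 lie below 1 in every group.

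Members are summed by coupling here as a description, since Adora1 and Ptger3 make up nearly all of the Gi sum. The 3 Gi-coupled receptors together reached 97.9 ± 17.5 CPM per kb in chow controls, 115 ± 7.91 in HFD controls and 70.2 ± 12.5 in HFD C-3BO mice (SD, n = 5). The 5 Gs-coupled receptors reached 14.8 ± 1.59, 23.8 ± 3.60 and 18.5 ± 2.37 in the same groups. The ratio of the Gi to the Gs sum was 6.67 ± 1.51 in chow controls, 7.71 ± 3.09 in chow C-3BO, 4.92 ± 0.985 in HFD controls and 3.87 ± 0.987 in HFD C-3BO mice. It was 6.62 ± 2.36 in chow saline, 7.72 ± 1.51 in chow CL, 4.78 ± 0.449 in HFD saline and 4.67 ± 0.332 in HFD CL mice. The ranges of C-3BO and control mice overlapped on each diet, at 2.89 to 5.28 against 3.89 to 6.22 on HFD, and this ratio was not tested.

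Each comparison was called with edgeR's quasi-likelihood test, Benjamini-Hochberg adjusted over the 13277 genes tested, and every adjusted p below comes from it unless DESeq2 is named; a call is an adjusted p under 0.05. Overexpression of Gpr3 in brown adipocytes asks what constant Gs input does to these receptors. On chow it was accompanied by a rise of Ptger1 and a fall of Ptgir, 1 of 8 tested members higher and 1 lower, where 15.8% of all genes were called higher and 15.9% lower. On HFD Ptger1 rose again and Ptgir and Adora1 fell, 1 higher and 2 lower, against a background of 19.3% and 15.5%. The median log2 fold change of the 8 members was 0.066 on chow and -0.44 on HFD, beside -0.032 and -0.017 over all tested genes.

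CL, which stimulates the same second messenger through Adrb3, was associated with no call on chow (0 of 8 by edgeR, 0 at an unadjusted p under 0.05 and 0 by DESeq2), where 9.16% of all genes were higher and 6.13% lower. On HFD the CL group had higher Ptger1 and lower Ptgir, 1 member in each direction, against 12.7% and 10.8% of all genes. The members' median log2 fold change was -0.17 on chow and -0.40 on HFD, beside -0.0052 and -0.010 over all genes.

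Most members were higher on HFD in uninjected controls, 6 of 8 (Adora1, Adora2a, Ptger1, Ptger2, Ptger4 and Ptgir) with 0 lower by edgeR, by DESeq2 or at an unadjusted p under 0.05. Over all genes, 15.4% were called higher and 17.5% lower, so this count lies above the background. The median of the members was 0.67, against 0.00 for all genes. In C-3BO mice the same diet went with 2 members higher (Ptger1 and Ptgir) and 2 lower (Adora1 and Ptger3), where 13.5% and 12.2% of all genes were called. In the injected mice, HFD went with a rise of Ptgir in the saline groups (background 7.45% higher and 8.04% lower) and with a rise of Ptger1 and falls of Adora1 and Ptger3 in the CL groups (background 10.9% and 12.7%). The 0 members lower in the saline groups by edgeR compare with 1 at an unadjusted p under 0.05, Ptger3, and 0 by DESeq2. Scaling by library totals alone, without TMM factors (trimmed mean of M values, which correct for composition), would put the median log2 fold change of all genes between -0.230 and 0.208 over these 8 comparisons, against -0.032 to 0.027 with them. TMM factors are set to bring a trimmed mean of log ratios to 0, so these medians cannot show which scaling is right. Diet and treatment comparisons share groups with each other, so their values are given side by side and not as repeats.

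**Figure D2:**
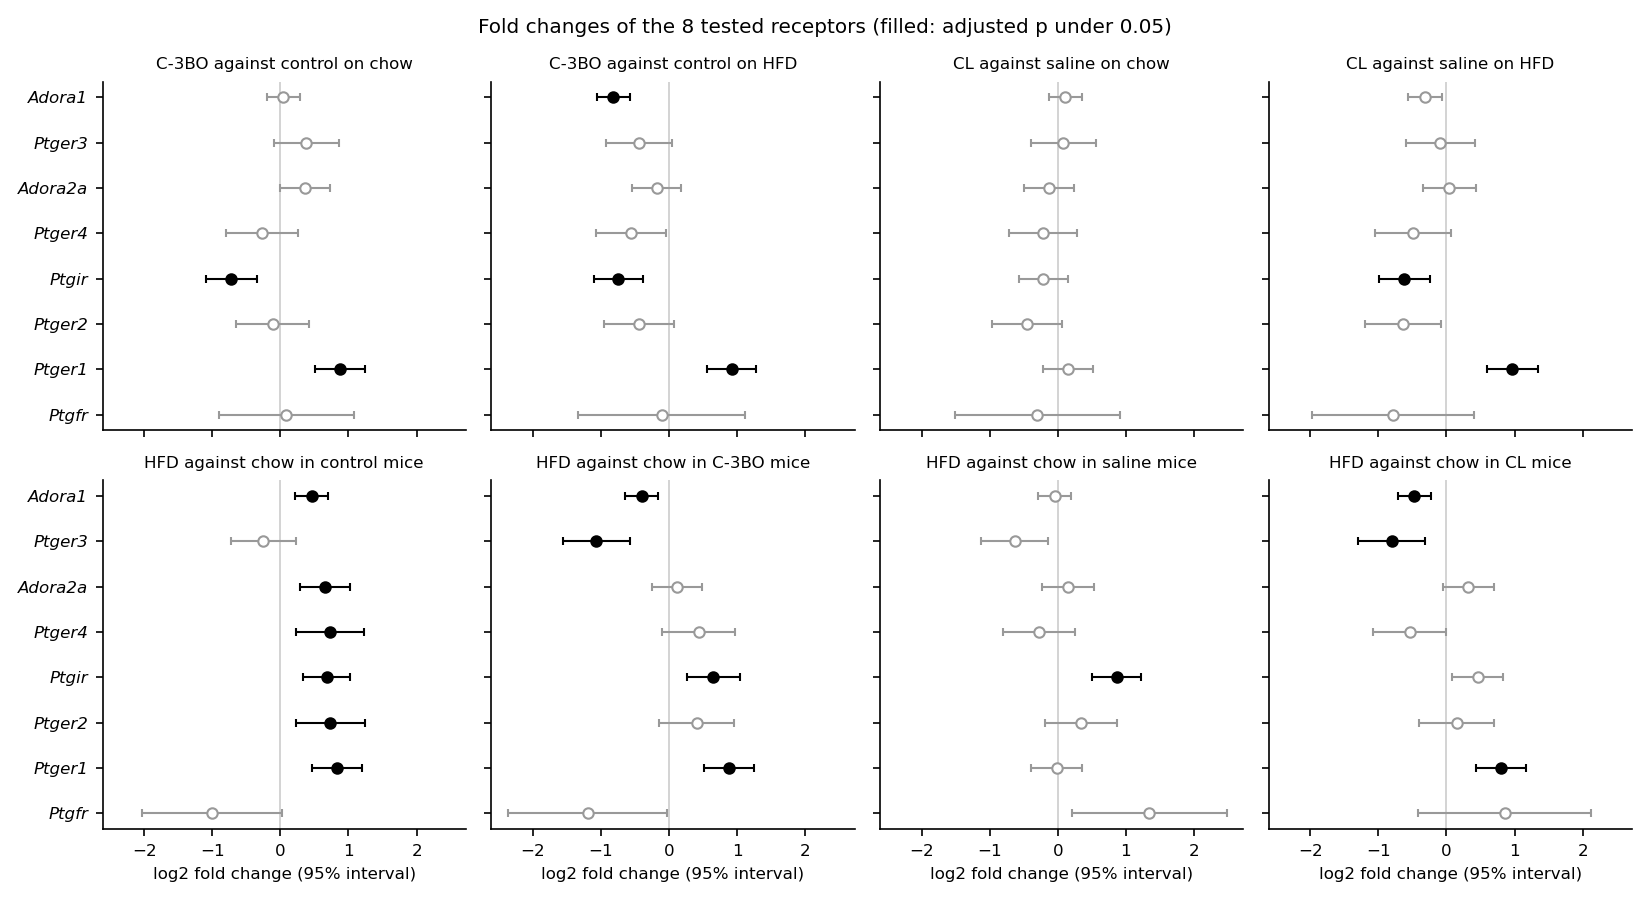
Log2 fold change of the 8 tested receptors (points, with 95% intervals) in the 8 comparisons between groups, from edgeR; filled points have an adjusted p under 0.05. Ptgir lies left of 0 and Ptger1 right of 0 in both C-3BO comparisons and in CL against saline on HFD, and 6 receptors lie right of 0 in controls on HFD.

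Differences between effects were tested as interactions. Only Adora1 was called, and only for the change of the C-3BO effect from chow to HFD, where 2.09% of all genes were called. In C-3BO mice Gpr3 was itself higher on HFD than on chow (log2 fold change 1.08, SE 0.31, adjusted p = 0.00847, without overlap). Diet and transgene level therefore cannot be told apart in any change of the C-3BO effect between diets. None of the 8 members was called by edgeR or DESeq2 for the change of the CL effect from chow to HFD (2 at an unadjusted p under 0.05, Adora1 and Ptger1; background 0.0151%), for the C-3BO effect less that of CL on chow (1 unadjusted, Ptger1; background 6.24%) or for the same difference on HFD (1 unadjusted, Adora1; background 1.8%). Thus the rise of Ptger1 with CL on HFD is not shown to differ from its value on chow, with an unadjusted 95% interval for the difference of 0.30 to 1.34 on the log2 scale and adjusted p = 0.294 by edgeR.

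Adora1, Ptger3, Ptgir and Ptger1 carry the calls, and the 250 bases ahead of the transcript start counted for each are printed here because these 4 genes hold the calls outside the diet effect in controls. The windows are in mm9, 5′ to 3′ on the gene's strand, from the reference genome of that build, and hold no exon of the GENCODE vM1 annotation. Capitals mark the GC box GGGCGG or its complement CCGCCC, the only searched motif found in them.
Adora1, chr1:136132035-136132284, minus strand: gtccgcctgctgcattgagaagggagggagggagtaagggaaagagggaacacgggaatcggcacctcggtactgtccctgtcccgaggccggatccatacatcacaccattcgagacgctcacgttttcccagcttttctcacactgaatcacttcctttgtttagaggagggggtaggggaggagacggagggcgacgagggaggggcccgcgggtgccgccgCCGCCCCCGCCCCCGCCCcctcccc
Ptger3, chr3:157229606-157229855, plus strand: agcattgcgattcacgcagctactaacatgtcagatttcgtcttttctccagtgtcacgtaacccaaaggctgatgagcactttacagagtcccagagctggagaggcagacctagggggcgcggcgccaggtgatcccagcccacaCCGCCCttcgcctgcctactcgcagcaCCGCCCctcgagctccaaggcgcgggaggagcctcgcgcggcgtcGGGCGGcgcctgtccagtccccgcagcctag
Ptgir, chr7:17491589-17491838, plus strand: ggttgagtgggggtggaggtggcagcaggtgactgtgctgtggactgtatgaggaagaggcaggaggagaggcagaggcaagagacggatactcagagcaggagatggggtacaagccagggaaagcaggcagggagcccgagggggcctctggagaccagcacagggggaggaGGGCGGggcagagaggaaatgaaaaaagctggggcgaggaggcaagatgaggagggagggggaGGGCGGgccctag
Ptger1, chr8:86190289-86190538, plus strand: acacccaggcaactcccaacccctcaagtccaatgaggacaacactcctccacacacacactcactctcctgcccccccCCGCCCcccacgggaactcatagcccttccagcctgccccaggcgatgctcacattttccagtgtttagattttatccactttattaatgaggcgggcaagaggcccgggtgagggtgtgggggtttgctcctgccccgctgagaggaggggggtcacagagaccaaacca
The motifs searched on both strands were the cAMP response element TGACGTCA, its 5-base half-site TGACG, the NR4A site AAAGGTCA, the TATA box TATAAA and the GC box, and the half-site also matches within the full element. A GC box was present in 8 of the 10 members (absent in Adora3 and Ptger2) and in 45.5% of 20292 windows of equal length. No member's window held the cAMP response element (2.14% of all windows), its half-site (21.2%), the NR4A site (1.05%) or the TATA box (11.8%). These matches describe letters in the windows and say nothing about the factors.

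Adora1, the Gi-coupled receptor through which adenosine restrains lipolysis in fat cells, was the adenosine receptor with the highest level and the only member called for a difference in its C-3BO effect between diets. The gene lies on the minus strand at chr1:136095792-136132034 (mm9). In chow controls it stood at 273, 308, 266, 201 and 279 CPM and in chow C-3BO libraries at 307, 300.2, 284, 219 and 256 CPM. These groups overlapped (log2 fold change 0.043, 95% interval -0.20 to 0.28, adjusted p = 0.825), and the sign of this small difference turned when libraries were scaled by their totals alone. On HFD the controls were at 336, 333, 399.6, 346 and 407 CPM and the C-3BO libraries at 211, 199, 246, 173 and 205 CPM. Every HFD C-3BO library lay below every HFD control, a 1.76-fold lower level (log2 fold change -0.82, SE 0.12, adjusted p = 2.75e-06). Without HFD C-3BO libraries 4 and 5 the value was -0.74, adjusted p = 0.000252. From chow to HFD the C-3BO effect changed by -0.86 (SE 0.17, adjusted p = 0.00428), and -0.78, adjusted p = 0.0329 without these libraries. Gpr3 was also higher on HFD in C-3BO mice, so diet and transgene level cannot be told apart in this change.

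The diet went with a rise of Adora1 in uninjected controls, with falls in C-3BO and CL mice and with no call in saline mice (log2 fold change -0.044, SE 0.12, adjusted p = 0.864). In controls it was 1.37-fold higher on HFD, without overlap (log2 fold change 0.46, SE 0.12, adjusted p = 0.0038). In C-3BO mice it was lower on HFD (log2 fold change -0.40, SE 0.12, adjusted p = 0.0147), and that call was lost without libraries 4 and 5 (-0.32, adjusted p = 0.12) and when libraries were scaled by totals alone (-0.22, adjusted p = 0.163). The injected groups read 237, 293, 247, 350.1 and 395 CPM in chow saline, 296, 382, 362, 309.8 and 293 in chow CL, 287, 273, 293, 331 and 297 in HFD saline and 210.3, 207, 277, 232 and 261 in HFD CL. The chow CL libraries were all above the HFD CL libraries, so Adora1 was lower on HFD in CL mice (log2 fold change -0.47, SE 0.12, adjusted p = 0.00496), a call that was lost under scaling by totals alone (-0.30, adjusted p = 0.0624). CL against saline on HFD missed the threshold for Adora1 (log2 fold change -0.32, SE 0.12, adjusted p = 0.0612), and the change of the CL effect between diets was not called either (-0.43, adjusted p = 0.44). The former passed the threshold under 5 alternatives, namely scaling by totals alone (-0.46, adjusted p = 0.00439), the 10 libraries fitted alone (-0.33, adjusted p = 0.0154), DESeq2 (-0.32, adjusted p = 0.0492) and omission of HFD CL library 3 (-0.38, adjusted p = 0.0376) or HFD saline library 2 (-0.36, adjusted p = 0.0489). The span of Adora1 overlaps that of Mybph on the opposite strand by 2018 bases, and whether counting used strand is not given in the sources used here, so reads of the shared stretch cannot be assigned. Mybph averaged 0.135 to 1.57 CPM over the groups, far below Adora1.

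**Figure D3:**
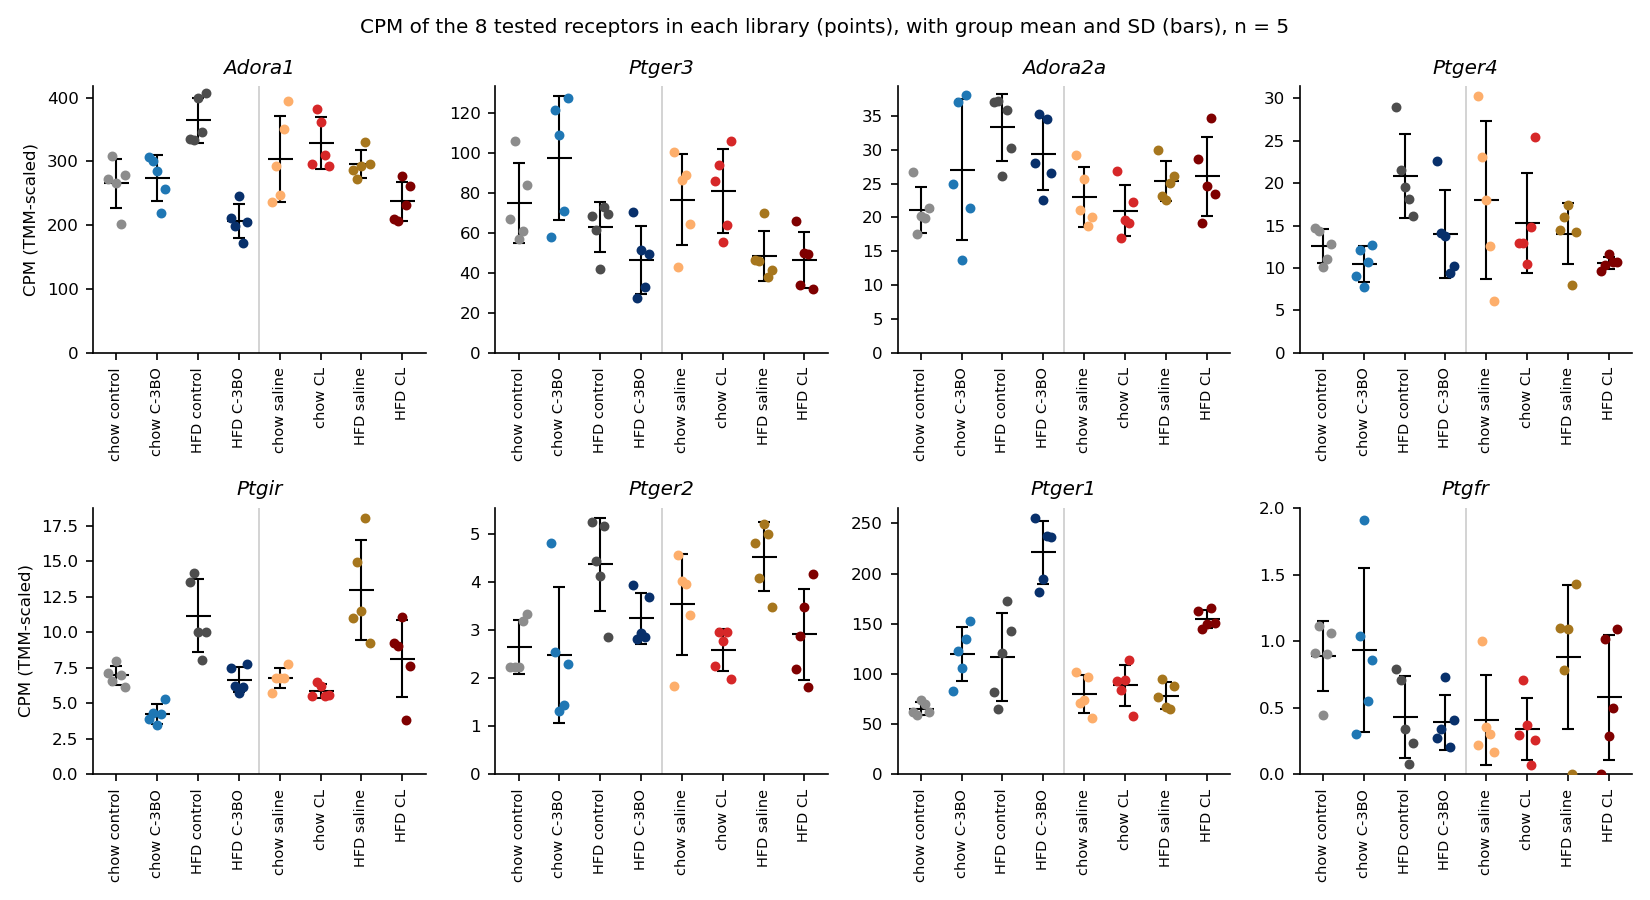
CPM of the 8 tested receptors in each library (points), with the group mean and SD (bars, n = 5); the line divides the C-3BO cohort from the injected cohort, and every axis starts at 0. Adora1 in HFD C-3BO libraries (173 to 246) lies below HFD controls (333 to 407), and Ptger1 is highest in HFD C-3BO libraries (182 to 256).

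Ptger3, the Gi-coupled prostaglandin E2 receptor that lowers cAMP in fat cells, was called in the diet comparisons of C-3BO and CL mice alone. It lies on the plus strand at chr3:157229856-157307722. Chow controls were at 66.9, 106, 57.2, 61.2 and 84.1 CPM, chow C-3BO at 58.02, 122, 109, 70.96 and 128 CPM, HFD controls at 68.7, 61.3, 42.2, 73.1 and 69.7 CPM and HFD C-3BO at 70.3, 27.7, 51.6, 33.005 and 49.4 CPM. The ranges of the C-3BO groups overlapped, and their means were 97.5 ± 31.2 and 46.4 ± 16.9 CPM (SD, n = 5). In C-3BO mice Ptger3 was thus 2.10-fold lower on HFD (log2 fold change -1.07, SE 0.25, adjusted p = 0.00161), with -0.97, adjusted p = 0.02 without libraries 4 and 5, and this was the only call on a member whose log2 fold change exceeded 1 in size. C-3BO against control gave 0.38 on chow (95% interval -0.10 to 0.86) and -0.44 on HFD (95% interval -0.93 to 0.049), with adjusted p of 0.243 and 0.171. Their difference was -0.82 (SE 0.35, adjusted p = 0.237). In controls, HFD against chow was -0.25 (adjusted p = 0.459).

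Among the injected mice, Ptger3 read 100.5, 43.1, 86.5, 88.9 and 64.5 CPM in chow saline and 46.6, 45.96, 69.9, 38.1 and 41.4 CPM in HFD saline. The chow CL libraries were at 86.3, 93.9, 55.3, 64.1 and 106 CPM and the HFD CL libraries at 66.2, 34.1, 50.02, 49.7 and 31.8 CPM. It was lower on HFD in CL mice (log2 fold change -0.81, SE 0.25, adjusted p = 0.0169), but not past the threshold without chow CL library 5 (adjusted p = 0.0559), HFD CL library 2 (0.0549) or HFD CL library 5 (0.0571). In saline mice the value was -0.63 (SE 0.25, adjusted p = 0.0828) and passed the threshold without chow saline library 2 (0.0281) or HFD saline library 3 (0.0397). CL itself left intervals of -0.40 to 0.56 on chow and -0.60 to 0.42 on HFD. All HFD libraries in these diet contrasts carried liver transcripts, with the 6 liver genes summing to 72.2 to 207 CPM in HFD saline and 117 to 235 CPM in HFD CL, against at most 2.02 CPM in the chow injected groups.

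Ptgir, the Gs-coupled receptor for prostacyclin, was called lower with C-3BO on both diets and with CL on HFD but not on chow. It lies on the plus strand at chr7:17491839-17496254 and was counted at 18 to 188 reads per library. Chow controls were at 7.10, 6.58, 7.95, 7.02 and 6.12 CPM and chow C-3BO libraries at 3.92, 4.28, 3.46, 4.21 and 5.30 CPM. HFD controls were at 13.5, 14.1, 10.03, 8.06 and 10.01 CPM and HFD C-3BO libraries at 7.48, 6.21, 5.75, 6.11 and 7.78 CPM. The groups did not overlap on either diet, with a 1.65-fold lower level on chow (log2 fold change -0.72, SE 0.19, adjusted p = 0.00392) and a 1.68-fold lower level on HFD (log2 fold change -0.75, SE 0.18, adjusted p = 0.00153). Without HFD C-3BO libraries 4 and 5 the latter was -0.78, adjusted p = 0.00679. The C-3BO effects on the 2 diets differed by -0.028 (95% interval -0.56 to 0.51, adjusted p = 0.987).

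In the injected mice, Ptgir stood at 5.73, 6.79, 6.79, 6.80 and 7.74 CPM in chow saline and 5.50, 6.52, 6.19, 5.48 and 5.61 CPM in chow CL. It was at 11.02, 14.95, 11.5, 18.05 and 9.21 CPM in HFD saline and 9.25, 8.99, 11.1, 3.80 and 7.63 CPM in HFD CL. The highest of these, in HFD saline library 4, rested on 18 counts, as that library was the shallowest of all with 849126 counts. On HFD the level was lower with CL, at 8.14 ± 2.72 against 12.95 ± 3.53 CPM (SD, n = 5, log2 fold change -0.62, SE 0.19, adjusted p = 0.0169), yet the ranges overlapped and the call was lost without HFD CL library 4 (-0.43, adjusted p = 0.0744), without HFD saline library 2 (-0.55, adjusted p = 0.0535) or when the 10 libraries were fitted alone (-0.63, adjusted p = 0.0743). On chow the difference was -0.21 (95% interval -0.57 to 0.15, adjusted p = 0.479). Ptgir was higher on HFD in 3 of 4 settings, 1.60-fold in controls (log2 fold change 0.68, SE 0.18, adjusted p = 0.00289), 1.57-fold in C-3BO mice (log2 fold change 0.65, SE 0.20, adjusted p = 0.0133) and 1.82-fold in saline mice (log2 fold change 0.86, SE 0.19, adjusted p = 0.00152), each without overlap. The C-3BO call was lost without libraries 4 and 5 (0.61, adjusted p = 0.0556) and without chow C-3BO library 3 (0.56, adjusted p = 0.0507). In CL mice HFD gave 0.46 (SE 0.19, adjusted p = 0.0753), and 0.65, adjusted p = 0.00617 without HFD CL library 4.

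Markers of vascular cells moved with Ptgir in part of these comparisons. Of 7 smooth muscle and pericyte markers, 6 rose with HFD in controls and 5 fell in C-3BO mice on HFD. Of 7 endothelial markers, 7 rose and 5 fell in the same comparisons. Over all genes, 15.4% were called higher in the former comparison and 15.5% lower in the latter. The smooth muscle and pericyte markers summed to 342 to 531 CPM in chow controls, 318 to 533 in chow C-3BO, 687 to 1024 in HFD controls and 605 to 665 in HFD C-3BO libraries, with no marker at 0. For the endothelial markers these ranges were 806 to 1199, 518 to 1036, 1628 to 2117 and 1348 to 1497 CPM, again with none at 0. On chow, where Ptgir was also lower in C-3BO mice, 1 smooth muscle and pericyte marker (Pdgfrb) and 2 endothelial markers (Pecam1 and Cdh5) fell. The summed ranges overlapped, and 15.9% of all genes were called lower. With CL on HFD, where Ptgir was lower as well, 2 endothelial markers (Emcn and Pecam1) rose and none fell, with sums of 1483 to 1991 CPM against 1301 to 1423 CPM with saline. In that comparison 1 smooth muscle and pericyte marker (Notch3) and 3 of 7 macrophage markers fell. So did 3 of 7 markers of fibroblasts and adipocyte progenitors (Dcn, Col1a1 and Pdgfra). Macrophage sums were 90.5 to 206 against 192 to 387 CPM, and fibroblast and progenitor sums 1074 to 2298 against 2204 to 3559 CPM. The shares over all genes were 12.7% higher and 10.8% lower. In saline mice on HFD against chow, 5 of 7 macrophage markers rose (summed range 97.1 to 175 CPM on chow). The share of all genes called higher there was 7.45%. Skeletal muscle markers were lower on HFD in controls (6 of 6, beside 17.5% of all genes). They were also lower on HFD in C-3BO mice (6 of 6, beside 12.2%) and with CL on chow (5 of 6, beside 6.13%). Their sums were 611 to 7756 CPM in chow controls, 4.32 to 170.5 in HFD controls, 317 to 3054 in chow C-3BO, 4.16 to 57.96 in HFD C-3BO, 8.14 to 2044 in chow saline and 8.46 to 113 in chow CL libraries. The 6 Schwann cell and nerve markers summed to 172 to 334 CPM in HFD controls and 358 to 568 in HFD C-3BO libraries, with Th and Dbh at 0 in both. Sums were 162 to 287 in HFD saline and 241 to 409 in HFD CL libraries. On chow the ranges overlapped, at 114 to 189 in controls and 158 to 180 in C-3BO, and 131 to 169 with saline and 134 to 206 with CL. In bulk tissue fewer cells of a type and less RNA per cell cannot be told apart, and the part of these cell types in the receptor results was not tested.

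Adora2a, the Gs-coupled adenosine receptor with the highest level, rose with HFD in controls. It lies on the plus strand at chr10:74779622-74797537. Chow controls were at 26.7, 17.5, 20.1, 19.9 and 21.4 CPM and HFD controls at 37.1, 37.2, 26.2, 35.9 and 30.3 CPM. The highest chow control slightly exceeded the lowest HFD control, and the difference was 1.57-fold (log2 fold change 0.65, SE 0.18, adjusted p = 0.00545). Chow C-3BO libraries ranged from 13.7 to 38.1 CPM and HFD C-3BO libraries from 22.6 to 35.3 CPM. C-3BO against control gave 0.36 on chow (95% interval -0.0094 to 0.72, adjusted p = 0.143), which passed the threshold without chow C-3BO library 3 (0.56, adjusted p = 0.0119), and -0.18 on HFD (95% interval -0.54 to 0.18). The injected groups averaged between 20.996 and 26.1 CPM, and none of their 4 comparisons was called (lowest adjusted p = 0.237).

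Ptger4 and Ptger2 are the Gs-coupled prostaglandin E2 receptors, and both rose with HFD in controls by about the same factor. Ptger4, on the minus strand at chr15:5183399-5194187, stood at 14.7, 14.4, 10.1, 11.05 and 12.8 CPM in chow controls and 29.01, 21.5, 19.6, 18.2 and 16.1 CPM in HFD controls, without overlap (1.66-fold, log2 fold change 0.73, SE 0.26, adjusted p = 0.0255). That call was lost without HFD control library 1 (0.58, adjusted p = 0.0985), chow control library 3 (adjusted p = 0.0653) or chow control library 4 (0.0636). Ptger2, on the plus strand at chr14:45607786-45623495, stood at 2.23, 2.23, 2.24, 3.20 and 3.33 CPM in chow controls and 5.25, 4.45, 4.12, 5.17 and 2.86 CPM in HFD controls (1.66-fold, log2 fold change 0.73, SE 0.26, adjusted p = 0.0257). It was lost without any 1 of 5 libraries, chow control 1, 2 or 3 or HFD control 1 or 4, with adjusted p between 0.0591 and 0.0672. In all, 4 of 4 tested Gs-coupled members were called higher on HFD in controls, where the share over all genes was 15.4%, against 1, 1 and 0 of 4 in C-3BO, saline and CL mice. For Ptger4 and Ptger2 the call rested on single libraries as given.

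Neither receptor was called in any other comparison, although Ptger4 with CL on HFD passed the threshold when those 10 libraries were fitted alone (-0.50, adjusted p = 0.0322) and Ptger2 with HFD in C-3BO mice did so without chow C-3BO library 1 (0.77, adjusted p = 0.0366). Ptger4 was at 14.02 ± 5.22 CPM in HFD C-3BO mice (SD, n = 5), which gave -0.56 against HFD controls (SE 0.26, adjusted p = 0.0923). This value passed the threshold without HFD C-3BO library 1 (-0.80, adjusted p = 0.0221) or with scaling by totals alone (-0.73, adjusted p = 0.0334), and was -0.32, adjusted p = 0.46 without libraries 4 and 5. Chow saline libraries spread from 6.12 to 30.3 CPM for Ptger4, the widest group, whereas HFD CL libraries lay between 9.58 and 11.6 CPM. Ptger2 averaged between 2.48 CPM in chow C-3BO and 4.53 CPM in HFD saline mice, and its largest uncalled difference was -0.64 for CL against saline on HFD (95% interval -1.20 to -0.073, adjusted p = 0.106).

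Ptger1, the prostaglandin E2 receptor that raises calcium, lies on the plus strand at chr8:86190539-86194002 and had group means from 65.5 to 221 CPM. Since the sources used here do not say whether counting used strand, reads of genes that overlap cannot be told apart, and the level of Ptger1 and its place in the order are uncertain. Chow controls were at 62.5, 58.95, 73.8, 70.2 and 62.3 CPM and chow C-3BO libraries at 83.03, 123, 106, 135 and 152 CPM. HFD controls were at 82.2, 65.5, 121, 173 and 142 CPM and HFD C-3BO libraries at 256, 182, 194, 238 and 236 CPM. C-3BO libraries lay above controls on both diets, 1.83-fold on chow (log2 fold change 0.87, SE 0.19, adjusted p = 0.000482) and 1.89-fold on HFD (log2 fold change 0.92, SE 0.19, adjusted p = 0.000177, and 0.85, adjusted p = 0.00312 without libraries 4 and 5). On HFD it was higher, 1.78-fold in controls (log2 fold change 0.83, SE 0.19, adjusted p = 0.000631), where the ranges overlapped, and 1.84-fold in C-3BO mice (log2 fold change 0.88, SE 0.19, adjusted p = 0.000543), where they did not. Without libraries 4 and 5 the latter was 0.81, adjusted p = 0.00725. The effects of C-3BO on the 2 diets differed by 0.048 (95% interval -0.47 to 0.56, adjusted p = 0.969).

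In the injected cohort, Ptger1 was at 102, 71.1, 74.2, 96.7 and 56.3 CPM in chow saline and 92.98, 83.8, 93.7, 114 and 58.3 CPM in chow CL. It was at 76.6, 94.9, 66.8, 65.2 and 88.4 CPM in HFD saline and 163, 145, 149, 166 and 150.4 CPM in HFD CL. All HFD CL libraries lay above every other injected library, 1.95-fold over HFD saline (log2 fold change 0.97, SE 0.19, adjusted p = 0.000287) and 1.75-fold over chow CL (log2 fold change 0.81, SE 0.19, adjusted p = 0.00159). CL on chow gave 0.15 (95% interval -0.22 to 0.51) and HFD in saline mice -0.014 (95% interval -0.39 to 0.36). The HFD CL and HFD saline groups both belong to the libraries with liver transcripts, and all 6 calls on Ptger1 were kept under every alternative to the scaling, filter, model and libraries, with adjusted p at or below 0.0105. Every alternative used the same counts, so the part of reads shared with the overlapping gene in these calls was not tested. On chow the C-3BO effect exceeded that of CL by 0.73 (SE 0.26, adjusted p = 0.0932).

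Ptgfr, the receptor for prostaglandin F2 alpha, was at the limit of detection with 210 counts in all 40 libraries together. Group means ran from 0.341 ± 0.234 CPM in chow CL to 0.933 ± 0.616 CPM in chow C-3BO mice (SD, n = 5), and 3 counts, taken as the least that can be read, correspond to 0.206 to 3.01 CPM depending on the library. None of its comparisons was called, and intervals such as -2.03 to 0.031 for HFD in controls were wide, so that differences were not detectable at this depth. The value of 1.34 for HFD in saline mice (SE 0.58, adjusted p = 0.112) passed the threshold only without chow saline library 2 (1.93, adjusted p = 0.0283). Adora2b, a Gs-coupled adenosine receptor, had 95 counts in all and between 6 and 25 per group, with group means of 0.112 to 0.413 CPM. Adora3, the Gi-coupled adenosine receptor known from mast cells, had 11 counts in all and none in 32 libraries. It had no count in any library of the chow control, chow C-3BO and HFD C-3BO groups. The 5 markers of mast cells (Cpa3, Mcpt4, Tpsb2, Cma1 and Kit) were present in all groups, with summed medians of 28.3 to 84.03 CPM.

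Around the receptors, 22 genes that form, move or break down adenosine were listed and 18 were tested. C-3BO went with 6 higher and 2 lower on chow and 7 higher and 3 lower on HFD, and CL with 4 and 0 on chow and 5 and 1 on HFD. Over all genes the shares higher and lower were 15.8% and 15.9%, 19.3% and 15.5%, 9.16% and 6.13%, and 12.7% and 10.8% in the same order. Alpl, an alkaline phosphatase that can dephosphorylate AMP, rose by a log2 fold change of 1.74 (SE 0.17) with C-3BO on chow, 2.41 (SE 0.17) on HFD, 0.95 (SE 0.17) with CL on chow and 1.83 (SE 0.19) on HFD. Slc29a1, the equilibrative transporter that carries adenosine across the membrane, rose from 103 ± 12.8 to 242 ± 24.2 CPM with C-3BO on HFD (log2 fold change 1.23, SE 0.12, adjusted p = 2.81e-10). Pnp, which cleaves inosine, rose in the same 4 comparisons by 0.97, 1.21, 0.99 and 1.44, and a near-identical copy in the genome leaves its counts uncertain. In these comparisons the list's median log2 fold change was 0.10 and 0.34 for C-3BO and -0.13 and 0.31 for CL, on chow and HFD. HFD went with 3 higher and 2 lower in controls, 3 and 0 in C-3BO, 0 and 1 in saline and 4 and 2 in CL mice. The shares over all genes were 15.4% and 17.5%, 13.5% and 12.2%, 7.45% and 8.04%, and 10.9% and 12.7% in that order. Nt5e, the ecto-enzyme that forms adenosine from AMP, was also called, with C-3BO on chow, at 3.94 ± 0.908 against 2.25 ± 1.09 CPM (log2 fold change 0.83, SE 0.30, adjusted p = 0.034).

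Of 19 genes for prostanoid synthesis, transport and breakdown 18 were tested. C-3BO went with 2 higher and 3 lower on chow and 4 and 1 on HFD, CL with 2 and 0 on chow and 1 and 0 on HFD, and HFD with 2 and 6 in controls, 2 and 2 in C-3BO, 1 and 1 in saline and 2 and 1 in CL mice. Beside the shares over all genes, such as 15.8% and 15.9% for C-3BO on chow and 15.4% and 17.5% for HFD in controls, these counts lie near or below the background except the 6 lower with HFD in controls. Ptgs1, the constitutive cyclooxygenase, fell with C-3BO on chow (log2 fold change -0.79, SE 0.19, adjusted p = 0.00185) and on HFD (log2 fold change -1.28, SE 0.19, adjusted p = 2.34e-06), whereas Hpgd, which inactivates prostaglandins, rose in both (log2 fold change 0.91 and 0.90). Ptgds, a prostaglandin D2 synthase, ranged from 38.6 to 326 CPM in chow controls and from 3.21 to 5.56 CPM in chow C-3BO libraries (log2 fold change -4.98, SE 0.44, adjusted p = 1.23e-10). On HFD it was at 12.2 ± 4.76 CPM in controls and 12.4 ± 5.83 CPM in C-3BO mice (SD, n = 5), and the C-3BO effect was not called there. The C-3BO effect on Ptgds accordingly changed by 4.96 from chow to HFD (SE 0.59, adjusted p = 1.69e-06), with a fall on HFD in controls (-3.60) and a rise in C-3BO mice (1.36). Ptges, an inducible prostaglandin E2 synthase, fell with HFD in all 4 settings, with log2 fold changes of -1.31 in controls, -1.26 in C-3BO, -0.83 in saline and -1.22 in CL mice. The list's median log2 fold change was -0.092 and -0.095 for C-3BO on chow and HFD and -0.098 for HFD in controls. Tbxa2r, the thromboxane receptor, was the only other prostanoid receptor tested. It was called in CL mice, higher on HFD (log2 fold change 1.46, SE 0.51, adjusted p = 0.0342). Its level was low, at 1.97 ± 0.958 CPM in HFD CL and 0.669 ± 0.283 CPM in chow CL mice (SD, n = 5). In HFD CL libraries 3 counts correspond to 0.495 to 0.872 CPM. All of these HFD libraries carried liver transcripts.

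Other receptors of brown fat were counted in the same way, while for the G proteins called genes are named without a count. The shares of all genes higher and lower were 15.8% and 15.9% for C-3BO on chow and 19.3% and 15.5% on HFD. For CL they were 9.16% and 6.13% on chow and 12.7% and 10.8% on HFD. Of 8 other Gs-coupled receptors tested, Gpr3 included, 3 were higher (Gpr3, Gipr and Adrb3) and 1 lower with C-3BO on chow. On HFD 1 was higher, Gpr3 itself, and 2 were lower. The rise of Gpr3 in C-3BO mice is the transgene and is no result about these receptors. With CL 1 was higher (Gpr3, through chow CL library 3) and 2 lower on chow, and 0 and 4 on HFD. Of 10 other Gi-coupled receptors, 2 rose with C-3BO on chow (Hcar1 and Hcar2, receptors for lactate and for ketone bodies, with Hcar1 at 76.7 ± 15.9 against 26.5 ± 9.35 CPM) and 1 fell, 1 rose on HFD (Ffar2), and 0 and 0 were called with CL on chow and HFD. Of 9 G alpha subunits, Gnas, which encodes Gs alpha, and Gnao1 rose in all 4 comparisons, and Gnas reached 6135 ± 666 CPM in HFD C-3BO against 3449 ± 1084 CPM in HFD control mice (log2 fold change 0.83, SE 0.15, adjusted p = 4.27e-05). Gnai2, a Gi alpha subunit, fell with C-3BO on chow (-0.44) and HFD (-0.63) and with CL on chow (-0.30). Gnai1 rose with C-3BO on HFD (0.58).

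The genes whose log2 CPM followed each receptor most closely over the 40 libraries were found among tested genes of at least moderate level, and the libraries share their groups, depth and scaling, so the coefficients are descriptions. Ptger1 went with Trp53inp2 (r = 0.92, rho = 0.89), Fastkd5 (r = 0.92, rho = 0.90) and Ppp4r1 (r = 0.90, rho = 0.89). Ptgir went with Cygb (r = 0.89, rho = 0.88), Actn1 (r = 0.84, rho = 0.83) and Timp3 (r = 0.83, rho = 0.80). The closest partners of the others were looser, with Rrbp1 for Adora1 (r = 0.75, rho = 0.71), Rtp3 for Adora2a (r = 0.73, rho = 0.71), Notch3 for Ptger2 (r = 0.71, rho = 0.68), A530016L24Rik for Ptger3 (r = 0.77, rho = 0.76) and Kbtbd2 for Ptger4 (r = 0.77, rho = 0.69).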

How the data were processed

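RNA was measured in 40 libraries of mouse BAT, prepared by poly(A) selection from 1 µg of total RNA. The authors deposited raw read counts per gene, made by aligning reads to mm9 with STAR, building tag directories with HOMER and counting exon reads with iRNA-seq; versions and the use of strand are not given in the sources used here. A read that overlapping genes share could therefore be counted for either gene. Deposited counts were used as they stood, libraries were grouped by their labels, and start positions were shifted by 1 base to count from 1.

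Counts were filtered with filterByExpr over the 8 groups (minimum count 10), which kept 13277 of 20295 genes, scaled by TMM and fitted with edgeR 4.0.16 in R 4.3.3, using 1 mean per group over all 40 libraries. Each contrast was tested by the quasi-likelihood F test, two-sided, with Benjamini-Hochberg adjustment over all tested genes; the SE is the log2 fold change divided by the square root of F. The edgeR step was tested on simulated data. CPM used the TMM-scaled totals, and CPM per kb was divided by the exon bases counted for the gene. Likeness was Pearson's r of log2 CPM, with a prior count of 2. DESeq2 1.42.0, other scalings and filters, a replicate block, omission of each library in turn and omission of both HFD C-3BO libraries with liver transcripts were tried as alternatives. Plots and summaries were made in Python 3.11.15 with pandas 2.3.3 and matplotlib 3.10.9.

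The named genes were all 10 receptors, Gpr3 as the check of the transgene, in each comparison at most the 4 called genes of a list with the largest change, and the 3 genes most like each receptor with a median of at least 20 counts. Mybph was named because it overlaps a member. Results on a few other genes are not reported here. Members, lists and the HFD C-3BO libraries to omit were chosen with earlier results of these data known. Labels number the libraries of a group from 1 to 5 and name no animals, so p-values measure only the spread between these libraries, which may be technical. No 2 libraries of the same group agreed within sampling noise, and libraries of different groups were not compared in this way. The least level read, 3 counts, was 0.206 to 3.01 CPM and covers counting error only.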

Additional observations from a re-analysis of the deposited data

Results flagged for a closer look

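Within groups of 5 libraries, 72 groups of values (the 8 tested receptors and Gpr3 in 8 groups) were examined for a library whose gap to its nearest neighbour exceeded Dixon's 95% limit, and 3 were found, where chance alone flags about 1 in 20 groups. Ptger3 stood at 69.9 CPM in HFD saline library 3 (576 counts) against 46.6 CPM in the next library of its group. Ptgfr stood at 1.00 CPM in chow saline library 2, against 0.358 CPM in the next, and rested on 9 counts. Gpr3 stood at 9.15 CPM in chow CL library 3 (99 counts), against at most 0.711 CPM in the other chow CL libraries.

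The effect of C-3BO on Adora1 differed between diets when the difference itself was tested, being lower on HFD than on chow by a log2 fold change of -0.86 (SE 0.17, 95% interval -1.20 to -0.52, adjusted p = 0.00428 by edgeR). As Gpr3 was also higher on HFD in C-3BO mice, diet and transgene level cannot be told apart here.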

How the results depend on the processing

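No call on a member turned direction under any alternative. Requiring an absolute log2 fold change above 1 as well, as the study did, left 0 members called for CL on HFD, C-3BO on chow, C-3BO on HFD, HFD in controls, HFD in saline mice, HFD in CL mice and the change of the C-3BO effect between diets, and 1 for HFD in C-3BO mice. Scaling by library totals alone gave 5 calls for C-3BO on HFD in place of 3, and leaving out HFD C-3BO libraries 4 and 5 gave 2 calls for HFD in C-3BO mice in place of 4. Leaving out each library in turn gave 1 to 3 calls for CL on HFD and 1 to 3 for HFD in saline mice, with 1 without HFD CL library 4 and 3 without HFD CL library 3 for the former, and 2 without HFD saline library 3 and 3 without chow saline library 2 for the latter. The direction of small differences that were not called turned with scaling by totals alone for Adora1 and Ptger3 with CL on chow, Adora2a with CL on HFD, Adora1 and Ptgfr with C-3BO on chow, and Adora1 and Ptger1 with HFD in saline mice. The cause of these changes was not tested.

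Replicate numbers did not pair the libraries, since the correlation of same-numbered deviations ran from -0.376 to 0.444 and exceeded 0.1 in 8 of 40 pairs. With the replicate number as a block the counts of called members were the same as without it, at 0 and 2 for CL on chow and HFD, 2 and 3 for C-3BO, and 6, 4, 1 and 3 for HFD in control, C-3BO, saline and CL mice. Depth limits the low receptors most, as Ptgfr, Adora2b and Adora3 had 210, 95 and 11 counts in all.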
